A study of Mus musculus with 9 samples.

Results

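Receptors for angiotensin, endothelin, prostaglandins and related ligands were followed by their mRNA in serum-treated mouse fibroblasts with less Net or less Sap-1 mRNA. The set was a list of 10 genes, namely Agtr2, Agtr1a, Ednra, Ednrb, Ptgfr, Ptger2, Ptger4, Grpr, Gpr149 and F2r, and each gene was read from its probe set with a single gene symbol (the brightest over 9 arrays where a gene had several). Of the 10 genes, 9 were measured, each on 1 probe set, out of 19935 genes in all, and Ednra was not analysed here. The list was drawn up with the differences between these same arrays known, so the values of its members are given as a description, with standard errors and without p-values.

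All 10 genes encode G protein-coupled receptors at the cell surface. In textbook fibroblast and smooth muscle biology, the angiotensin type 1 receptor, the endothelin receptors, the prostaglandin F receptor, the gastrin-releasing peptide receptor and the thrombin receptor act largely through the Gq class of G proteins, phospholipase C and calcium. The prostaglandin E receptors EP2 and EP4 act through Gs and cyclic AMP. The angiotensin type 2 receptor often opposes the type 1 receptor, and GPR149 is an orphan receptor with no settled ligand.

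The cells were NIH 3T3, an established mouse fibroblast line, that stably carried the pLKO.1 control vector (Control), an shRNA against Net (NetKD) or an shRNA against Sap-1 (SapKD), with 3 biological replicates and 3 arrays in each group. Every group was plated on fibronectin for 2 hours, kept overnight without serum and given bovine serum for 1 hour before lysis, so no array shows the cells before serum. Sample protocols state 10% serum, whereas the series design states 20%. Net is the product of Elk3 and Sap-1 that of Elk4, and both are ternary complex factors, ETS-domain partners of serum response factor. The number of independently transduced lines is not stated, so the p-values cover only the spread between these samples and not that between separately made lines. Levels are log2 RMA values of Affymetrix Mouse Gene 1.0 ST arrays, on which a difference of 1 is a doubling. The lower quartile of all probe sets lay at 5.99 to 6.09 in the 9 arrays, and without detection calls no probe set was called absent.

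Elk3 was lower by 0.42 in NetKD than in Control cells (SE 0.04, limma adjusted p = 1.1e-05) and Elk4 was lower by 1.54 in SapKD cells (SE 0.04, adjusted p = 9.2e-10), and Elk4 was also lower in NetKD cells, by 0.44 (SE 0.04, adjusted p = 2.3e-05). In SapKD cells Elk3 was lower by 0.12 (SE 0.04, limma adjusted p = 0.023), a call lost without Control replicate 2, Control replicate 3 or SapKD replicate 1, and Srf was lower by 0.19 (SE 0.05, adjusted p = 0.0085). All 15 fibroblast markers were measured, with group means of 9.59 to 14.04, and summed to 190.3 to 190.9 in Control, 189.3 to 189.9 in NetKD and 187.4 to 187.7 in SapKD arrays, without overlap. In NetKD cells 1 was higher and 5 lower, and in SapKD cells 1 was higher and 6 lower, among them the platelet-derived growth factor receptor gene Pdgfra, which fell by 1.74. The 5 lower in NetKD cells became 3 without Control replicate 1, Control replicate 2 or NetKD replicate 2, 2 without NetKD replicate 1 and 1 without Control replicate 3 or NetKD replicate 3. Summed over 12 genes, endothelial markers stood at 83.8 to 84.4 in Control, 86.3 to 87.3 in NetKD and 85.5 in each SapKD array, with 3 genes higher in NetKD cells and 3 higher and 1 lower in SapKD cells. Among these Tek rose by 1.84 in NetKD and fell by 0.30 in SapKD cells, where Emcn rose by 0.89 and Cdh5 by 0.84. The median difference over the 12 genes was 0.05 in NetKD cells. Emcn, at 0.27 there, no longer passed without Control replicate 1, 2 or 3, NetKD replicate 2 or NetKD replicate 3. The 10 macrophage markers summed to 65.9 to 66.1, 67.3 to 67.6 and 67.5 to 67.8 in the Control, NetKD and SapKD arrays, with 3 higher in NetKD and 2 higher and 1 lower in SapKD cells. Lyz2 alone rose by 0.81 in NetKD and 1.81 in SapKD cells, whereas the median differences over the 10 genes were 0.01 and -0.02. Of 10 markers each, 3 smooth muscle, 2 epithelial, 1 melanocyte and 0 neuronal genes were higher in NetKD cells and 2, 0, 1 and 3 were lower. In SapKD cells 2, 1, 0 and 1 of these were higher and 3, 0, 1 and 1 were lower. The part of other cell types in the results below was not tested, and fewer cells of a type cannot be told apart from less RNA per cell in such bulk samples.

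The promoters of the receptor genes were read from RefSeq (build GRCm38.p6), as 250 bases before to 50 bases after the annotated start. They were available here for 7 of the 9 measured members, but not for Agtr1a or Gpr149. Shown are those of the 3 receptors whose levels were lowest against Control in SapKD cells and that of F2r, whose level moved little, because the proteins targeted here bind DNA through the ETS core GGAA. Capitals mark GGAA on either strand, and CCGGAA, an extended ETS site that contains the core.
Agtr2, chrX:21484374-21484673, plus strand: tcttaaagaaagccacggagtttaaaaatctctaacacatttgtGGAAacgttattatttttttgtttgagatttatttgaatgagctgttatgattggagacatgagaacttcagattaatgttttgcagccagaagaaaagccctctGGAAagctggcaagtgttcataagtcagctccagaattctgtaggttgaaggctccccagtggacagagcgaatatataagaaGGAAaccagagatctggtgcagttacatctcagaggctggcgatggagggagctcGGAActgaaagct
Ptgfr, chr3:151837479-151837778, minus strand: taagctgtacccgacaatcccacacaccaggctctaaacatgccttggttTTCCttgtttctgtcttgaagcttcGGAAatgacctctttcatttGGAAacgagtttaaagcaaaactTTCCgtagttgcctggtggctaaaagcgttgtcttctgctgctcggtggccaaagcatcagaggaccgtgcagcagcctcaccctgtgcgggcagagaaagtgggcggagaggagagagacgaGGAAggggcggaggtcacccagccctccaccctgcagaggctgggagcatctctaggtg
Grpr, chrX:163549687-163549986, minus strand: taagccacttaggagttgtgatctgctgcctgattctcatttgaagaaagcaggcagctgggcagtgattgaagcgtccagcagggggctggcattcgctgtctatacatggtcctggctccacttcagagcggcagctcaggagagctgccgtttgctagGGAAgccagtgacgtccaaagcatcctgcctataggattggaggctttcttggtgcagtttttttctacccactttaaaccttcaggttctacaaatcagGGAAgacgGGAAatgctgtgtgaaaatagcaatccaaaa
F2r, chr13:95618417-95618716, minus strand: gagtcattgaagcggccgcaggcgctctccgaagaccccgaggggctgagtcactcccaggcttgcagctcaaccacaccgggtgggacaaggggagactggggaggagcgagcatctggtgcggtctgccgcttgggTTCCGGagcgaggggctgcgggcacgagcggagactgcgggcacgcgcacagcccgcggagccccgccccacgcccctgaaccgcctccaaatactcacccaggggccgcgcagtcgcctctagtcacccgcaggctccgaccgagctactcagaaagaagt
Agtr2 held 4 copies of GGAA, Ptgfr 5, Grpr 3 and F2r 1, on both strands together. Of the other measured members read, Ptger4 held 4 and Ednrb and Ptger2 held 3 each. A link between these copies and the levels was not tested. GGAA was found in 96.0% of 32851 promoters of this length, with a median of 3 copies. CCGGAA was found in 14.9% of all promoters, and F2r was the only 1 of the 7 measured members that held it. None of the 7 held a CArG box, the DNA site of serum response factor, which 1.63% of all promoters hold. CpG dinucleotides numbered 3 in Ptger2, 5 in Agtr2, 6 in Grpr, 11 in Ptgfr, 15 in Ednrb, 25 in Ptger4 and 28 in F2r, with a median of 7 over all promoters. These letters describe the windows and do not show binding.

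Agtr2 and Gpr149 were the receptors whose levels ranged most widely over the 3 groups, and Agtr1a, Ednrb and Ptger2 stood at nearly the same level in all. These last 3 read low, with group means of 6.64 to 6.68, 6.26 to 6.30 and 5.60 to 5.67. Ptger2 lay below the lower quartile of all probe sets, and whether the 3 genes were expressed was not tested. Agtr2 was higher than Control in NetKD and lower in SapKD cells, Gpr149 was higher in both knockdowns, Grpr was lower in both, and Ptgfr was lower in SapKD cells. Ptger4 and F2r differed by at most 0.44 between any 2 groups. Past the call rule (limma adjusted p under 0.05 over all genes) were 3 members higher and 2 lower in NetKD cells, 5 of 9 in all, where 23.6% of all genes passed (13.4% higher, 10.2% lower). In SapKD cells 1 was higher and 3 lower, 4 of 9, where 29.7% of all genes passed (15.8% higher, 13.9% lower). Between NetKD and SapKD cells 4 were higher in NetKD and 2 lower, 6 of 9, where 27.5% of all genes passed (14.2% higher, 13.3% lower). With at least 1.5-fold asked as well, 3, 4 and 3 members passed in these comparisons, where 2.56%, 4.46% and 4.64% of all genes did. All comparisons with Control share the 3 Control arrays. Because the members were chosen from these contrasts, nothing is read from those shares. The median size of the difference over the 9 members was 0.20 in NetKD and 0.11 in SapKD cells, and 0.07 and 0.09 over all genes.

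**Figure D1:**
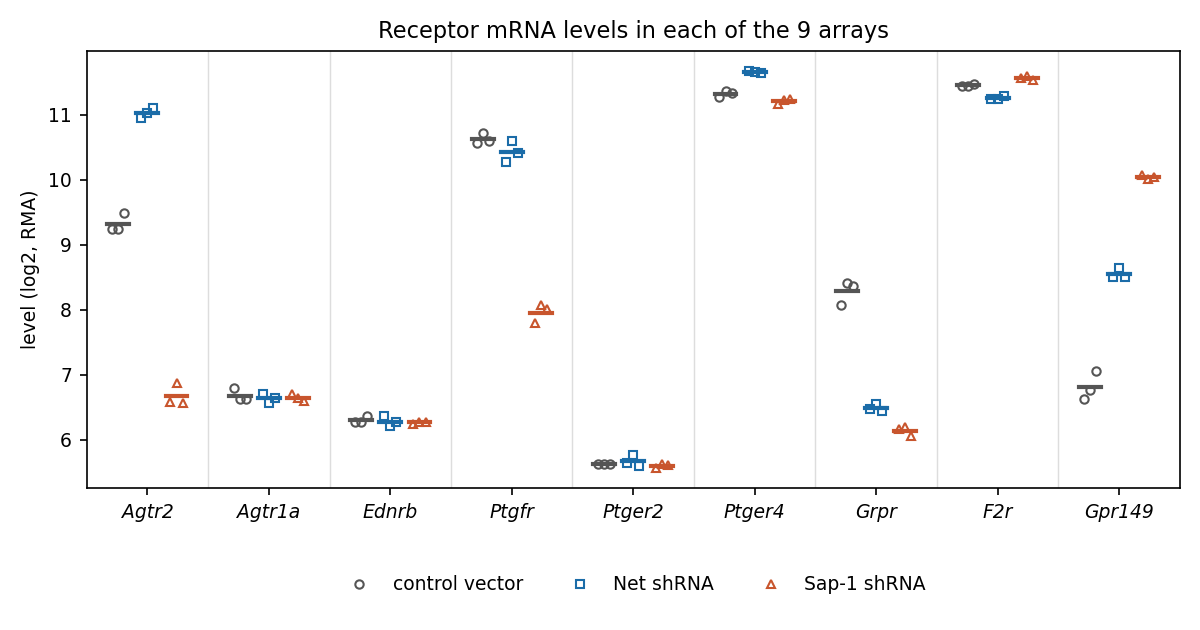
Log2 RMA level (vertical axis) of the 9 measured receptor genes in each array, with circles for Control, squares for NetKD and triangles for SapKD arrays and a bar at each group mean. Agtr2 ran from a mean of 6.67 in SapKD to 11.03 in NetKD arrays, whereas the group means of Agtr1a and of Ednrb lay within 0.04 of each other.

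Agtr2 encodes the angiotensin type 2 receptor. Its level was 9.24, 9.24 and 9.49 in the Control arrays, 10.95, 11.03 and 11.10 in the NetKD arrays and 6.58, 6.87 and 6.56 in the SapKD arrays. The 3 groups lay apart with no overlap, SapKD lowest and NetKD highest. The difference from Control was 1.71 in NetKD cells (SE 0.09), a 3.26-fold higher level, and -2.65 in SapKD cells (SE 0.09), a 6.29-fold lower level. NetKD stood 4.36 above SapKD (SE 0.09), which is 20.5-fold on the linear scale. The SapKD mean of 6.67 was as low as the levels of Agtr1a, and whether Agtr2 was expressed in SapKD cells was not tested. The type 1 receptor gene Agtr1a, whose product carries most of the pressor and growth effects of angiotensin II, read 6.79, 6.62 and 6.63 in Control, 6.70, 6.57 and 6.65 in NetKD and 6.71, 6.64 and 6.59 in SapKD arrays. These groups overlapped, and its differences from Control were -0.04 in each knockdown (SE 0.06). Agtr1a has a close paralog, Agtr1b, which was not analysed here, and cross-hybridisation was not tested.

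Ednrb encodes the endothelin receptor that binds all endothelins about equally. Its level was 6.27, 6.27 and 6.36 in Control, 6.36, 6.21 and 6.27 in NetKD and 6.25, 6.28 and 6.27 in SapKD arrays. No group stood apart, and the differences from Control were -0.02 in NetKD and -0.04 in SapKD cells (SE 0.05 each).

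Ptgfr encodes FP, the receptor of prostaglandin F2 alpha. Its level was 10.56, 10.72 and 10.59 in Control, 10.28, 10.60 and 10.42 in NetKD and 7.79, 8.07 and 8.01 in SapKD arrays. The SapKD arrays lay below all others, and the Control and NetKD arrays overlapped. It was 6.34-fold lower in SapKD than in Control cells, a difference of -2.67 (SE 0.09), and differed by -0.19 in NetKD cells (SE 0.09). The latter passed the call rule under the replicate block alone among the settings tried. NetKD exceeded SapKD by 2.47 (SE 0.09).

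The prostaglandin E receptors EP2 and EP4 share a ligand and the Gs route. Ptger4, the gene of EP4, read 11.27, 11.37 and 11.33 in Control, 11.68, 11.66 and 11.65 in NetKD and 11.17, 11.23 and 11.25 in SapKD arrays. Its groups were ordered SapKD, Control, NetKD without overlap, but the gap of SapKD below Control was -0.11 (SE 0.04) against 0.34 for NetKD above Control (SE 0.04, 1.26-fold). Ptger2, the gene of EP2, read 5.62 in each Control array, 5.64, 5.76 and 5.60 in NetKD and 5.56, 5.62 and 5.61 in SapKD arrays. Its groups overlapped, with differences of 0.05 and -0.02 (SE 0.05 each). The deposited Ptger2 values of the 3 Control arrays were identical to all digits, so its spread in that group is not known from them.

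Grpr encodes the receptor of gastrin-releasing peptide, a bombesin-like peptide that is mitogenic in 3T3 fibroblasts. Its level was 8.08, 8.41 and 8.37 in Control, 6.48, 6.55 and 6.45 in NetKD and 6.16, 6.20 and 6.06 in SapKD arrays. Every Control array lay above every knockdown array, and every NetKD array above every SapKD array. It was 3.47-fold lower in NetKD cells, at -1.80 (SE 0.08), and 4.42-fold lower in SapKD cells, at -2.14 (SE 0.08). The gap between the knockdowns was 0.35 (SE 0.08). The knockdown means of 6.49 and 6.14 lay near the lower quartile of all probe sets. Whether Grpr was still expressed in those cells was not tested.

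F2r encodes PAR1, the receptor that thrombin activates by cutting its extracellular end. Its level was 11.45, 11.44 and 11.48 in Control, 11.24, 11.24 and 11.29 in NetKD and 11.57, 11.59 and 11.54 in SapKD arrays. The groups did not overlap, NetKD lowest and SapKD highest, an order opposite to that of Agtr2 and Ptger4. The differences from Control were small, at -0.20 in NetKD (SE 0.04, 1.15-fold lower) and 0.11 in SapKD cells (SE 0.04). The order stayed when the median of the neighbouring genes was taken off, at -0.13 and 0.06.

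Gpr149 encodes an orphan receptor. Its level was 6.62, 6.76 and 7.06 in Control, 8.50, 8.65 and 8.50 in NetKD and 10.07, 10.01 and 10.04 in SapKD arrays. The groups lay apart in the order Control, NetKD, SapKD. It was 3.33-fold higher in NetKD cells, at 1.74 (SE 0.09), and 9.35-fold higher in SapKD cells, at 3.22 (SE 0.09). SapKD exceeded NetKD 2.81-fold. The Control mean of 6.81 lay below the median of 7.80 over all genes, and whether Gpr149 was expressed in Control cells was not tested. Over the 9 receptors the arrays of NetKD and Control did not overlap for 5, where this held for 34.3% of all genes, those of SapKD and Control for 6, where it held for 41.0%, and those of NetKD and SapKD for 6, where it held for 37.4%. The 50 nearest expressed genes of each member shifted by -0.07 to 0.07 in NetKD and by -0.15 to 0.12 in SapKD cells, in the median. The 3 members that differed at least 2-fold in NetKD and the 4 in SapKD cells kept differences of at least 1.70 in size with that median taken off.

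**Figure D2:**
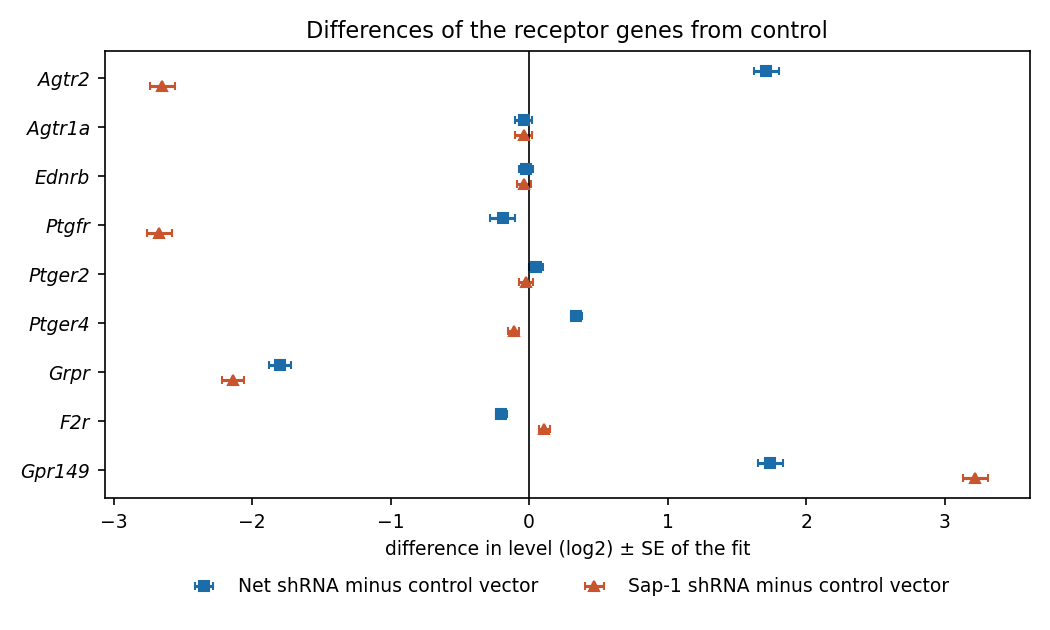
Difference in log2 level from Control (horizontal axis) of the 9 measured receptor genes, with squares for NetKD and triangles for SapKD cells and bars of 1 standard error of the limma fit. Agtr2 lies at 1.71 in NetKD and -2.65 in SapKD cells, Grpr is negative and Gpr149 positive in both, and Agtr1a, Ednrb and Ptger2 sit within 0.05 of 0.

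The genes whose profiles over the 9 arrays were most like those of the 3 widest-ranging receptors were sought among 511 other genes whose group means spanned at least 1. For Agtr2 they were the chemokine gene Ccl2 (Pearson r = 0.9990), the microtubule protein gene Map7d3 (0.9985) and the Wnt modulator gene Sfrp2 (0.9978). Ccl2 had means of 12.01 in Control, 12.85 in NetKD and 10.76 in SapKD arrays, and Sfrp2 of 10.40, 12.29 and 7.97, a wider swing. For Gpr149 they were Aldh1a7 (0.9965), uncertain because a near copy of this aldehyde dehydrogenase exists, the protocadherin gene Pcdh9 (0.9963) and the transferrin receptor gene Tfrc (0.9962). Tfrc had means of 9.90 in Control, 10.71 in NetKD and 11.51 in SapKD arrays, a narrower range than that of Gpr149. For Ptgfr they were Arhgap28 (0.9988), the glutamate receptor gene Gria1 (0.9986) and Galnt17 (0.9983), the last with means of 10.00, 9.85 and 6.33. With 9 arrays in 3 groups such correlations rest mostly on the 3 group means, and they describe likeness only.

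**Figure D3:**
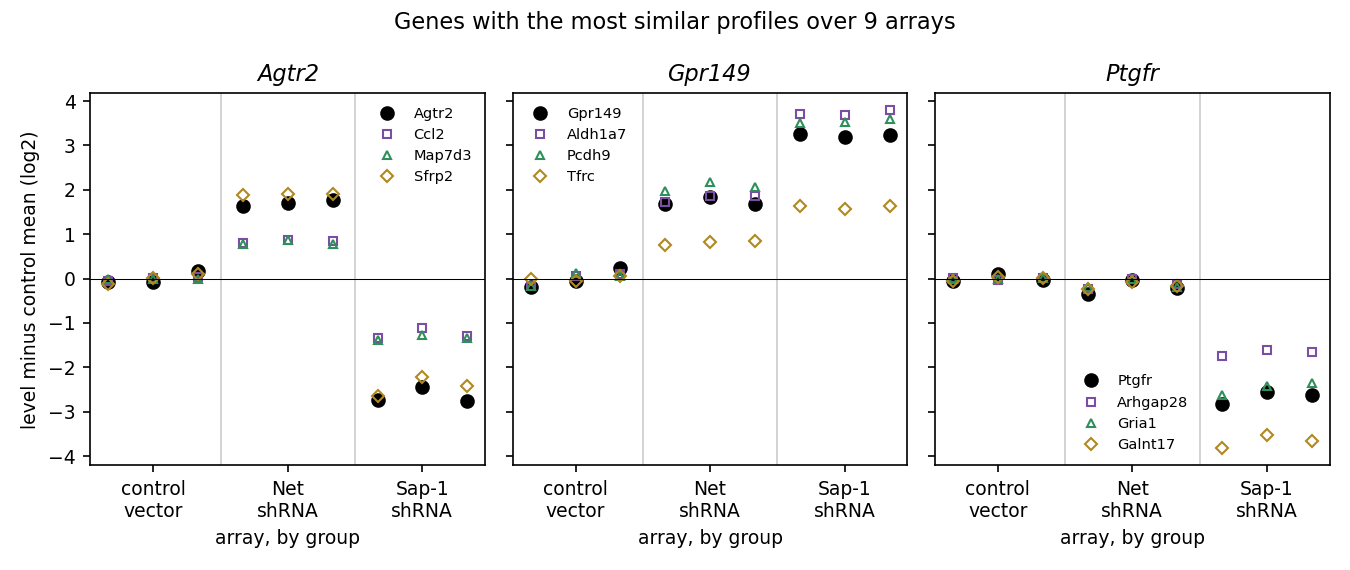
Log2 level minus the Control mean (vertical axis) in each array, ordered by group (horizontal axis), for Agtr2, Gpr149 and Ptgfr (black) and the 3 genes most correlated with each (open symbols). The Ccl2, Map7d3 and Sfrp2 points follow Agtr2 up in NetKD and down in SapKD arrays, and Galnt17 falls further than Ptgfr in SapKD arrays.

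A list of other receptors of the same families also held the angiotensin-related genes Agtrap and Atp6ap2. Neither encodes a G protein-coupled receptor, and 15 of the 18 listed genes were measured. In NetKD cells 2 rose and 1 fell, and in SapKD cells 1 rose and 0 fell by limma (1 higher and 0 lower at an unadjusted p under 0.05, where 37.8% of all genes passed in either direction). The 0 became 1 without Control replicate 1 and with the neighbours' median taken off. The renin receptor gene Atp6ap2 rose by 0.25 in SapKD cells (SE 0.06, limma adjusted p = 0.0093). The 3 calls in NetKD cells, with limma adjusted p-values of 0.02 to 0.044, were those of Atp6ap2 (0.19), of the thrombin receptor PAR4 gene F2rl3 (0.26) and of Agtrap (-0.17). F2rl3 was at 0.05 (adjusted p = 0.67) and Atp6ap2 at 0.18 (adjusted p = 0.076) with the neighbours' median taken off, so neither passed there. Agtrap encodes a protein bound to the type 1 angiotensin receptor, and its difference turned to 0.09 in that setting. Without Control replicate 2 or Control replicate 3 none of these 3 passed, and of the fits without 1 array only those without SapKD replicate 2 or SapKD replicate 3 kept all 3. The prostaglandin receptor genes Ptger1, Ptger3 and Ptgir and the bombesin receptor gene Nmbr differed from Control by -0.06 to 0.12 in both knockdowns and did not pass. Ptger3 and Nmbr read low, with group means of 5.61 to 5.67 and 5.90 to 6.05. The medians over the 15 genes were -0.02 in NetKD and -0.06 in SapKD cells, and over all genes -0.02 in SapKD cells.

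Of 59 measured receptors for other peptides, 4 rose and 0 fell in NetKD cells by limma (5 higher and 0 lower at an unadjusted p under 0.05, where 32.6% of all genes passed in either direction), and 4 rose and 5 fell in SapKD cells. In NetKD cells 7 rose and 4 fell with the neighbours' median taken off, and 1 fell without Control replicate 2. The 5 falls in SapKD cells became 3 without Control replicate 1, Control replicate 3 or SapKD replicate 3, and 12 with the neighbours' median taken off. Npy1r, a neuropeptide Y receptor gene, read 5.68, 5.76 and 5.74 in Control, 7.31, 7.31 and 7.41 in NetKD and 7.70, 7.84 and 7.90 in SapKD arrays. It rose by 1.61 (SE 0.06, limma adjusted p = 1e-08) and 2.09 (SE 0.06, adjusted p = 7.4e-10), and its groups did not overlap. Its Control mean of 5.73 lay below the lower quartile of all probe sets, and whether Npy1r was expressed there was not tested. Bdkrb1, the gene of the inducible bradykinin receptor, read 7.80, 7.79 and 7.79 in Control, 9.04, 8.97 and 9.01 in NetKD and 7.25, 7.51 and 7.32 in SapKD arrays. It rose by 1.22 in NetKD (SE 0.06, adjusted p = 1.7e-07) and fell by 0.43 in SapKD cells (SE 0.06, adjusted p = 0.00023), the order of groups seen for Agtr2. The prokineticin receptor gene Prokr1 fell by 0.90 in SapKD cells (SE 0.09, adjusted p = 1.6e-05), and the complement receptor gene C3ar1 rose by 0.58 (SE 0.06, adjusted p = 1.3e-05).

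Among ligand genes, Edn1, which encodes endothelin-1, rose most in SapKD cells. It read 9.19, 9.45 and 9.10 in Control, 9.59, 9.62 and 9.59 in NetKD and 11.16, 11.31 and 11.49 in SapKD arrays, so the SapKD arrays lay far above the rest. The rise was 2.07 in SapKD cells (SE 0.09, limma adjusted p = 3.9e-08). In NetKD cells it was 0.36 (SE 0.09, adjusted p = 0.017), which no longer passed without Control replicate 1 (adjusted p = 0.069), Control replicate 3 (0.074) or NetKD replicate 2 (0.054). Of 9 genes of endothelin ligands and their processing, 1 rose and 2 fell in NetKD cells and 2 rose and 1 fell in SapKD cells. The rise in NetKD cells became 2 and the fall in SapKD cells became 3 with the neighbours' median taken off. The converting enzyme gene Ece2 rose by 0.45 in SapKD cells (SE 0.05, adjusted p = 8e-05) and the proprotein convertase gene Furin fell by 0.34 (SE 0.04, adjusted p = 8e-05). The 2 falls in NetKD cells were those of Ece1 (-0.20) and Furin (-0.13), and neither passed without Control replicate 2, Control replicate 3, NetKD replicate 1 or NetKD replicate 3. Edn3 differed by 0.02 and -0.05 and did not pass.

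The peptidase genes of the angiotensin system were lower in both knockdowns where they moved most. Anpep, which encodes aminopeptidase N, an enzyme that trims angiotensin III, read 9.13, 9.33 and 9.41 in Control, 7.87, 8.03 and 7.88 in NetKD and 7.44, 7.50 and 7.57 in SapKD arrays. It fell by 1.36 (SE 0.07, limma adjusted p = 2.9e-07) and by 1.78 (SE 0.07, adjusted p = 1.6e-08). Ace, the gene of the angiotensin-converting enzyme, fell by 0.43 in NetKD (SE 0.06, adjusted p = 0.00035) and by 0.44 in SapKD cells (SE 0.06, adjusted p = 0.0002). The peptidase gene Thop1 rose by 0.35 in SapKD cells (SE 0.05, adjusted p = 0.0005). The precursor gene Agt did not pass, at 0.07 and 0.03 (SE 0.08). Of 11 measured genes of the list, 1 rose and 2 fell in NetKD cells and 4 rose and 2 fell in SapKD cells. The rise in NetKD cells was that of Atp6ap2, given above with its losses. The 4 rises became 2 without Control replicate 1, Control replicate 2 or SapKD replicate 2 and with the neighbours' median taken off, whereas Anpep and Ace stayed lower in every fit without 1 array.

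Prostaglandin metabolism had 20 measured genes, of which 5 rose and 3 fell in NetKD cells and 7 rose and 1 fell in SapKD cells, where 3 fell with the neighbours' median taken off. Pla2g4a, the gene of the cytosolic phospholipase that frees arachidonic acid, read 11.59, 11.59 and 11.55 in Control, 11.20, 11.36 and 11.33 in NetKD and 12.22, 12.19 and 12.32 in SapKD arrays. It fell by 0.28 in NetKD (SE 0.05, limma adjusted p = 0.0026) and rose by 0.67 in SapKD cells (SE 0.05, adjusted p = 2.9e-06). The prostaglandin carrier gene Slco2a1 took the same order, with -0.23 in NetKD (SE 0.04) and 0.32 in SapKD cells (SE 0.04). Abcc4, the gene of an export pump that carries prostaglandins, rose in both, 1.24-fold and 2.29-fold (adjusted p = 0.00043 and 9.2e-09). Akr1c18, a steroid and prostaglandin reductase gene of a family of close copies and therefore uncertain, rose by 1.86 (SE 0.09) and 1.03 (SE 0.09). Ptgis, the prostacyclin synthase gene, fell by 0.61 and 0.39 (SE 0.04 each). The inducible cyclooxygenase gene Ptgs2 stood at 13.95, 13.87 and 13.91 in the means of Control, NetKD and SapKD arrays and did not pass, nor did the prostaglandin E synthase gene Ptges at 0.10 and -0.10 (SE 0.05).

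The gastrin-releasing peptide gene Grp did not pass, at -0.07 in NetKD and -0.17 in SapKD cells (SE 0.06 each). Its group means of 5.56 to 5.72 lay below the lower quartile of all probe sets. In the list of bombesin and thrombin ligands and regulators, 2 of 13 genes rose in NetKD cells and 0 fell by limma (2 higher and 1 lower at an unadjusted p under 0.05), and 2 rose and 2 fell in SapKD cells. The falls became 3 in NetKD and 6 in SapKD cells with the neighbours' median taken off. Thbd, the gene of thrombomodulin, which binds thrombin at the cell surface, rose by 0.47 in NetKD (SE 0.06, limma adjusted p = 0.00021) and by 1.17 in SapKD cells (SE 0.06, adjusted p = 1.1e-07). The protein C receptor gene Procr rose by 0.39 and 0.44 (SE 0.04 each). The tissue factor gene F3, whose product starts the cascade that makes thrombin, fell by 0.50 in SapKD cells (SE 0.04, adjusted p = 4.5e-06).

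**Figure D4:**
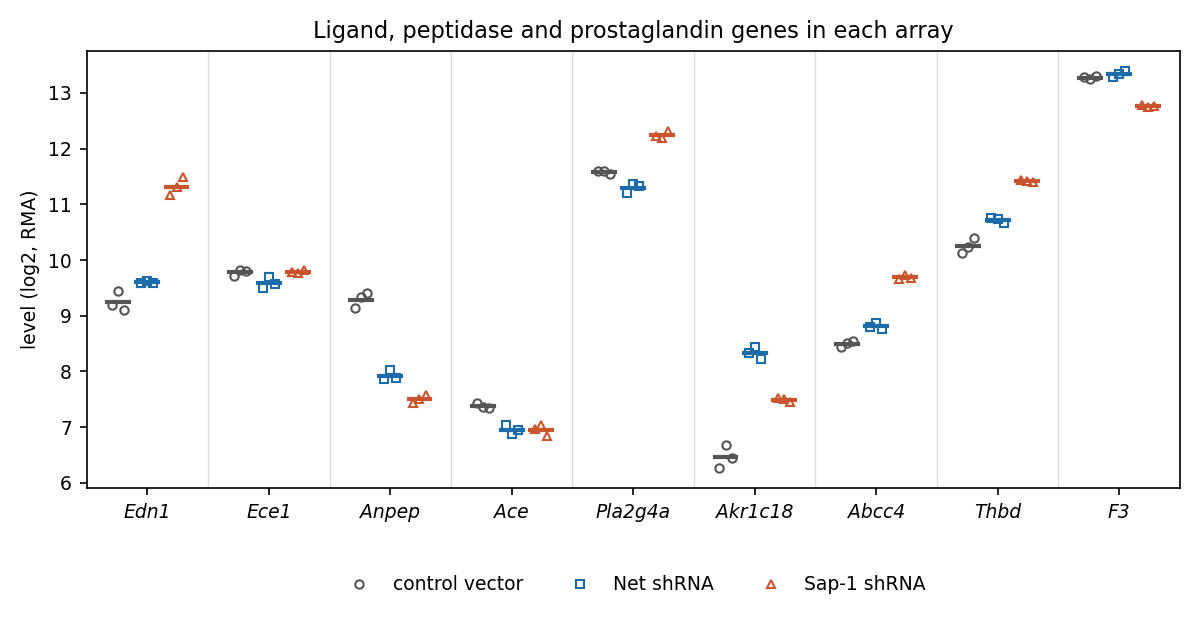
Log2 RMA level (vertical axis) in each array of 9 genes that make, trim, carry or bind the ligands of the receptors, with symbols as for the receptor levels and a bar at each group mean. Edn1 stands at a mean of 11.32 in SapKD arrays against 9.24 in Control, and Anpep drops from 9.29 to 7.93 in NetKD and 7.50 in SapKD arrays.

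Downstream of the receptors, 27 G protein subunit genes gave 2 rises and 2 falls in NetKD and 4 of each in SapKD cells. The 2 rises became 1 without Control replicate 1, Control replicate 3, NetKD replicate 2 or NetKD replicate 3, and the 4 rises became 2 without SapKD replicate 2. The rises were 1 and 2 with the neighbours' median taken off. Gnaq, the gene of the Gq alpha subunit, fell by 0.28 in SapKD cells (SE 0.04, limma adjusted p = 0.00026), whereas its relative Gna11 lay at -0.01 and the Gi subunit gene Gnai2 at 0.07, neither past the test. Of 30 effector genes 1 rose and 7 fell in NetKD cells, and 6 rose and 6 fell in SapKD cells. The single rise in NetKD cells became 0 without Control replicate 2 and 2 without NetKD replicate 3 or SapKD replicate 3, and with the neighbours' median taken off 0 rose and 12 fell there. Plcb1, a phospholipase C gene that Gq drives, fell by 0.62 in SapKD cells (SE 0.08, adjusted p = 8.5e-05). The IP3 receptor genes Itpr3 and Itpr2 fell in NetKD (-0.33 and -0.39) and rose in SapKD cells (0.55 and 0.45). The adenylyl cyclase gene Adcy6 fell by 0.41 in NetKD cells (SE 0.05, adjusted p = 7.4e-05) and rose by 0.22 in SapKD cells (SE 0.05, adjusted p = 0.0035). The rise no longer passed with the neighbours' median taken off, at 0.12 (adjusted p = 0.063). The protein kinase A subunit gene Prkar2b rose by 0.95 in SapKD cells (SE 0.04, adjusted p = 4e-08).

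Regulators that end receptor signalling included larger differences. Rgs4, which speeds the switching off of Gq and Gi, read 8.80, 8.86 and 9.04 in Control, 8.77, 8.74 and 8.69 in NetKD and 6.31, 6.27 and 6.30 in SapKD arrays. It fell by 2.61 in SapKD cells (SE 0.06, limma adjusted p = 2.2e-10) and lay at -0.17 in NetKD cells (adjusted p = 0.07), the order of groups seen for Ptgfr. Rgs16 rose by 1.51 in NetKD (SE 0.04) and 0.67 in SapKD cells (SE 0.04), and Rgs2 rose by 0.64 in NetKD but fell by 0.34 in SapKD cells (SE 0.06 each). The receptor kinase gene Grk5 rose by 1.11 and 0.89 (SE 0.07 each). The arrestin gene Arrb1 fell by 0.33 in NetKD and rose by 0.52 in SapKD cells (SE 0.06 each). In all, 5 of 36 genes of this list rose and 5 fell in NetKD cells, and 4 rose and 6 fell in SapKD cells. With the neighbours' median taken off 7 rose and 10 fell in SapKD cells. The list also held the receptor accessory protein genes Ramp1, Ramp2 and Ramp3, which are not of this kind.

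**Figure D5:**
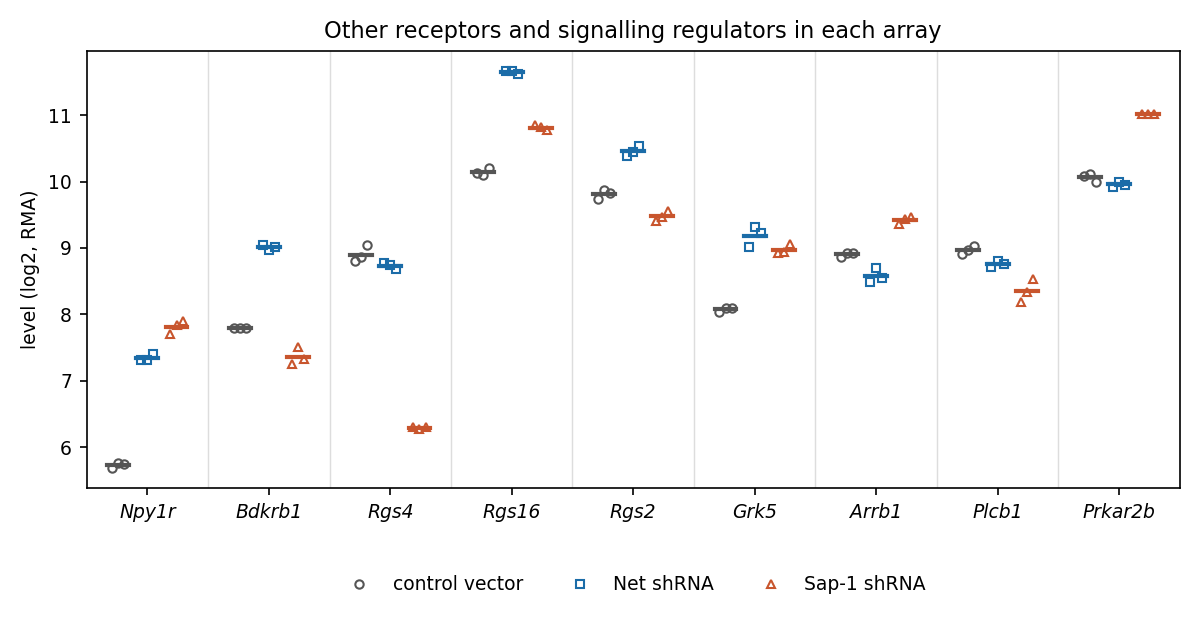
Log2 RMA level (vertical axis) in each array of 2 other peptide receptor genes and 7 genes of G protein signalling, with symbols as for the receptor levels and a bar at each group mean. Rgs4 drops to a mean of 6.29 in SapKD arrays from 8.90 in Control, and Npy1r rises from 5.73 to 7.34 in NetKD and 7.81 in SapKD arrays.

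Genes listed as targets of the cyclic AMP and calcium routes went both ways. All arrays were taken after 1 hour of serum, and whether either route moved these genes was not tested. Of 16 cyclic AMP response genes, 5 rose and 3 fell in NetKD cells and 4 rose and 5 fell in SapKD cells. The falls were 5 and 9 with the neighbours' median taken off. Ppargc1a, a transcriptional coactivator gene, rose by 1.03 (SE 0.06, limma adjusted p = 5e-07) and 2.92 (SE 0.06, adjusted p = 1e-10), whereas the kinase gene Sik1 fell by 0.34 (SE 0.06, adjusted p = 0.0015) and 1.21 (SE 0.06, adjusted p = 6.4e-08). Of 11 calcium and NFAT genes, 3 rose and 2 fell in NetKD cells, and 1 rose and 3 fell in SapKD cells. The 3 rises became 1 without Control replicate 1 or NetKD replicate 2. The calcineurin regulator gene Rcan1 rose by 0.40 in NetKD cells (SE 0.05, adjusted p = 0.00024) and lay at -0.03 in SapKD cells (adjusted p = 0.76). Over the 241 genes of all these lists pooled, 22.4% passed in NetKD and 29.0% in SapKD cells, beside 23.6% and 29.7% of all genes. The pooled shares lay close to that background, but single lists lay on both sides of it. In NetKD cells 6.78% of the other peptide receptors passed and 45.5% of the calcium and NFAT genes. In SapKD cells 6.67% of the same-family list and 15.3% of the other peptide receptors passed. There 54.5% of the angiotensin peptidase list and 56.2% of the cyclic AMP response genes did. Median Control levels were 6.62 in the other peptide receptors, 6.74 in the same-family list and 7.73 in the angiotensin peptidase list. They were 9.71 in the cyclic AMP response genes and 12.33 in the calcium and NFAT genes, against 7.80 over all genes. Whether single lists departed from the background, or whether the shares followed the level, was not tested.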

How the data were processed

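Total RNA of 9 samples was measured on Affymetrix Mouse Gene 1.0 ST arrays, 3 per group. The deposited table holds log2 levels of 28815 probe sets. The submitters' processing notes name RMA and Affymetrix Expression Console, without versions. RMA understates folds of dim genes and takes out shifts common to most genes. Precision is limited by having 3 arrays a group.

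Of the probe sets, 21780 carried a single symbol in the platform annotation, 1605 several and 5430 none. Only the first kind was named, with symbols updated through Entrez IDs in RefSeq (GRCm38.p6), which held 21689 of them. The brightest probe set stood for each of 19935 genes.

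Differences were fitted with limma 3.58.1 (R 4.3.3; lmFit, eBayes) to the 9 arrays together (1 mean for each group, 6 residual and 4.7 prior degrees of freedom), and Benjamini-Hochberg adjustment over all genes of a comparison. The script was tested on simulated data. The members and lists were chosen with earlier results of these data known. Text names were all members, up to 4 called genes per list and comparison by adjusted p, a fixed set of ligand and coupling genes, and the 3 most correlated genes of the 3 widest-ranging members. Other settings were a replicate block, 3 normalizations, an intensity trend with robust variances, the 6 arrays compared, a dim filter, the mean of probe sets, the median of the 50 nearest expressed neighbours taken off, each array left out, and 2 stricter call rules.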

Additional observations from a re-analysis of the deposited data

How the results depend on the processing

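The signs of Agtr2, Gpr149, Grpr, Ptger4 and F2r against Control, and of Ptgfr in SapKD cells, held in all the settings tried that kept the gene. The filter on dim genes removes Agtr1a, Ednrb, Ptger2 and Grpr by construction. Ptger4 in SapKD cells (-0.11) passed the call rule in 6 of 18 settings and F2r (0.11) in 4 of 18. Asking for at least 1.5-fold left 510, 890 and 924 genes in the NetKD, SapKD and direct comparisons, from 4714, 5921 and 5480, by its own construction. It left 3 members in the NetKD and 3 in the direct comparison, and 12, 19 and 22 list genes, from 54, 70 and 68. With the neighbours' median taken off, Agtrap turned to 0.09 (NetKD minus Control) and 0.40 (NetKD minus SapKD), Ddr2 to 0.17 (SapKD minus Control) and -0.34 (NetKD minus SapKD), Prcp to -0.02 in SapKD cells and S100a4 to -0.02 between the knockdowns. In that setting 72, 93 and 89 list genes passed, and 5333, 6773 and 6111 genes in all, so the counts rose over all genes too. Single lists gained or lost both rises and falls, as given beside each. The cause was not tested. The replicate block gave 4985, 6263 and 5752 genes. Same-numbered arrays deviated from their group means with r from -0.11 to 0.36, and differently numbered ones with r from -0.43 to 0.30. The labels give only a number, and whether same-numbered samples were handled together was not tested.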
